A study of Mus musculus with 12 samples.

Results

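The immediate-early transcription factor genes Fos, Fosb, Jun, Junb, Jund, Egr1, Atf3, Ier2, Nr4a1 and Klf6 were followed in microglia, the resident macrophages of the brain. The 10 genes were taken by symbol, and each matched 1 of the 36491 gene rows of the count table. All 10 were among the 18875 genes that passed the filter on low counts. Their lowest count in any library was 1584 (Ier2), so counting error was small beside the spread between libraries.

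The cells came from the brains of wild-type C57BL/6J mice, adult males aged 6 months, and were enriched on CD11b beads, which bind any myeloid cell. Every mouse had received a bone marrow transplant, 2 weeks of food with PLX5622 (a CSF1 receptor inhibitor, which removes microglia) and then 6 weeks of standard chow, so no group was left without irradiation or depletion. The groups differed in 2 ways: whether a head shield was used at the transplant, and whether the mouse was injected with lipopolysaccharide (LPS, a bacterial endotoxin; 50 µg, per the protocol) or with saline 6 hours before sorting. Each of the 4 groups (shielded without LPS, shielded with LPS, unshielded without LPS, unshielded with LPS) had 3 libraries of bulk RNA-seq.

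For libraries 2 and 3 of the shielded group without LPS, the treatment field names LPS and the title does not, and the titles were followed. The mean log2 counts-per-million value (CPM) of 10 LPS-response genes outside the set (such as Lcn2 and Cxcl10) was 3.75, 3.31 and 2.94 in the shielded libraries without LPS, against 8.10 to 8.66 in those with LPS. The unshielded libraries had 3.15 to 4.51 without LPS and 7.34 to 7.89 with LPS, so all 12 libraries lay with their titles. Libraries held 18090977 to 60495968 counted reads, and those of unshielded mice with LPS were the deepest, at 56776710 or more. The 14 microglial marker genes summed to 14819 to 34167 CPM, against 23.9 to 381 for 5 B cell markers and at most 0.634 for 5 T cell markers. Of the T cell markers, Cd3e was at 0 in the shielded libraries with LPS. The sums of 12 neutrophil and 10 monocyte markers were 316 to 1184 and 129 to 823 CPM. Those of 9 neuronal and 8 oligodendrocyte markers were 277 to 2234 and 427 to 2844 CPM.

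Immediate-early genes are transcribed within minutes of a stimulus, from factors that the cell already holds, and their transcripts are short-lived. FOS proteins pair with JUN proteins to form AP-1, and EGR1, ATF3, NR4A1 and KLF6 are transcription factors of other families that the same signals raise. In microglia these genes respond to inflammatory stimuli and also to the handling of the cells during isolation.

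Upstream sequence is shown for the 4 members that passed a test below and have an entry in the promoter table (Ier2 and Egr1 have none), as the stretch of 250 bases before the start site, from RefSeq on build GRCm38.p6. The lines give Fos (chr12:85473640-85473889, plus strand), Fosb (chr7:19310046-19310295, minus strand), Junb (chr8:84978749-84978998, minus strand) and Nr4a1 (chr15:101266596-101266845, plus strand), each 5′ to 3′ in the direction of the gene. Capitals mark TGACG, the core of the cAMP response element, its reverse complement CGTCA, and TATAAA.
Fos: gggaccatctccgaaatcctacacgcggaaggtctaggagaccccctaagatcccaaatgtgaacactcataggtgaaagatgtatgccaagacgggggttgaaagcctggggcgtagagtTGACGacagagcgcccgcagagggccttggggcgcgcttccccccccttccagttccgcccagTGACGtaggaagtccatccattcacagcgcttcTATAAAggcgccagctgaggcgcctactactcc
Fosb: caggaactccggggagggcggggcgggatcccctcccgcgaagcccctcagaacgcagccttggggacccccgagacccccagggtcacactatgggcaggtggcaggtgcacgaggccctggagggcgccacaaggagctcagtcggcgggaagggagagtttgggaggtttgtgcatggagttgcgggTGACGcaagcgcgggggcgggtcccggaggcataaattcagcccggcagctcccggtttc
Junb: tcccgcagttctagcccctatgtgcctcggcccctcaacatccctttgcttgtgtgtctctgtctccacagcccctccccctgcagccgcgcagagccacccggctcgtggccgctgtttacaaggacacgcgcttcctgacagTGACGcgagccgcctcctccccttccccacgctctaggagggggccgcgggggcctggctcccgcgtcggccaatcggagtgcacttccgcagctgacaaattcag
Nr4a1: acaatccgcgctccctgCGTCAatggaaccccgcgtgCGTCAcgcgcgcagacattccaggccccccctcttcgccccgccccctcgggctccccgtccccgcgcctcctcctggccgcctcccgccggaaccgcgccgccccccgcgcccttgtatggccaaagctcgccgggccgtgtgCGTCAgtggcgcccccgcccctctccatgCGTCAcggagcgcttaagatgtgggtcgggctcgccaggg

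Fos held TGACG at 129 to 125 and at 66 to 62 bases before its start, and TATAAA at 33 to 28. Fosb held TGACG at 60 to 56 bases before the start and Junb at 106 to 102. Nr4a1 held 4 copies, all as CGTCA, at 233 to 229, 213 to 209, 69 to 65 and 40 to 36. In windows of 300 bases (250 before and 50 after the start) searched on both strands, 5 of the 8 members with an entry had TGACG (Fos, Fosb, Junb, Atf3 and Nr4a1), as had 20.9% of 32544 promoters. TATAAA was found in 2 of 8 members (Fos, and Junb where the match lay wholly in the 50 bases after the start) and in 13.6% of all promoters. The EGR motif GCGNGGGCG was in 2 of 8 members (Fosb and Nr4a1) and in 5.60% of all. The full element TGACGTCA, which contains TGACG, was in none of the 8 and in 1.80% of all, and the AP-1 motif TGANTCA was in none of the 8 and in 7.79% of all. The NF-kB site was matched in 3 of 8 members (Fos, Fosb, and Nr4a1 where the match reached past the start) and in 4.53% of all. The CArG box was in none of the 8 and in 1.64% of all. These matches describe the letters in the window only.

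At the level of the whole set, LPS did not move the 10 genes in 1 direction. In shielded mice 3 of 10 passed the test (edgeR quasi-likelihood test over all genes, Benjamini-Hochberg adjusted p below 0.05), with Junb and Ier2 higher and Fosb lower, where 67.5% of all tested genes passed (32.4% higher and 35.1% lower). The LPS groups did not overlap for those 3 members, and for 69.8% of all genes. With the replicate number as a block, 4 members passed in shielded mice, Egr1 also being higher, against 68.2% of all genes. In unshielded mice 2 of 10 passed, Junb and Ier2, both higher, against 43.1% of all genes (24.3% higher and 18.8% lower). Those 2 were also the members without overlap, against 61.4% of all genes. With libraries scaled by their totals in place of TMM factors, 5 passed in shielded mice, Ier2 higher and Fosb, Jun, Jund and Nr4a1 lower, and 4 in unshielded mice, Junb and Ier2 higher and Fosb and Atf3 lower. Without LPS, 0 of 10 differed between unshielded and shielded mice by edgeR's test at the adjusted threshold, against 10.8% of all genes, 3.98% higher and 6.85% lower (2 members had an unadjusted p below 0.05, and DESeq2 also called 0). All 10 overlapped between those groups, where 33.6% of all genes did not. After LPS, 4 of 10 differed, with Fos, Fosb and Nr4a1 higher and Egr1 lower in unshielded mice, against 44.6% of all genes (19.1% higher and 25.6% lower).

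**Figure D1:**
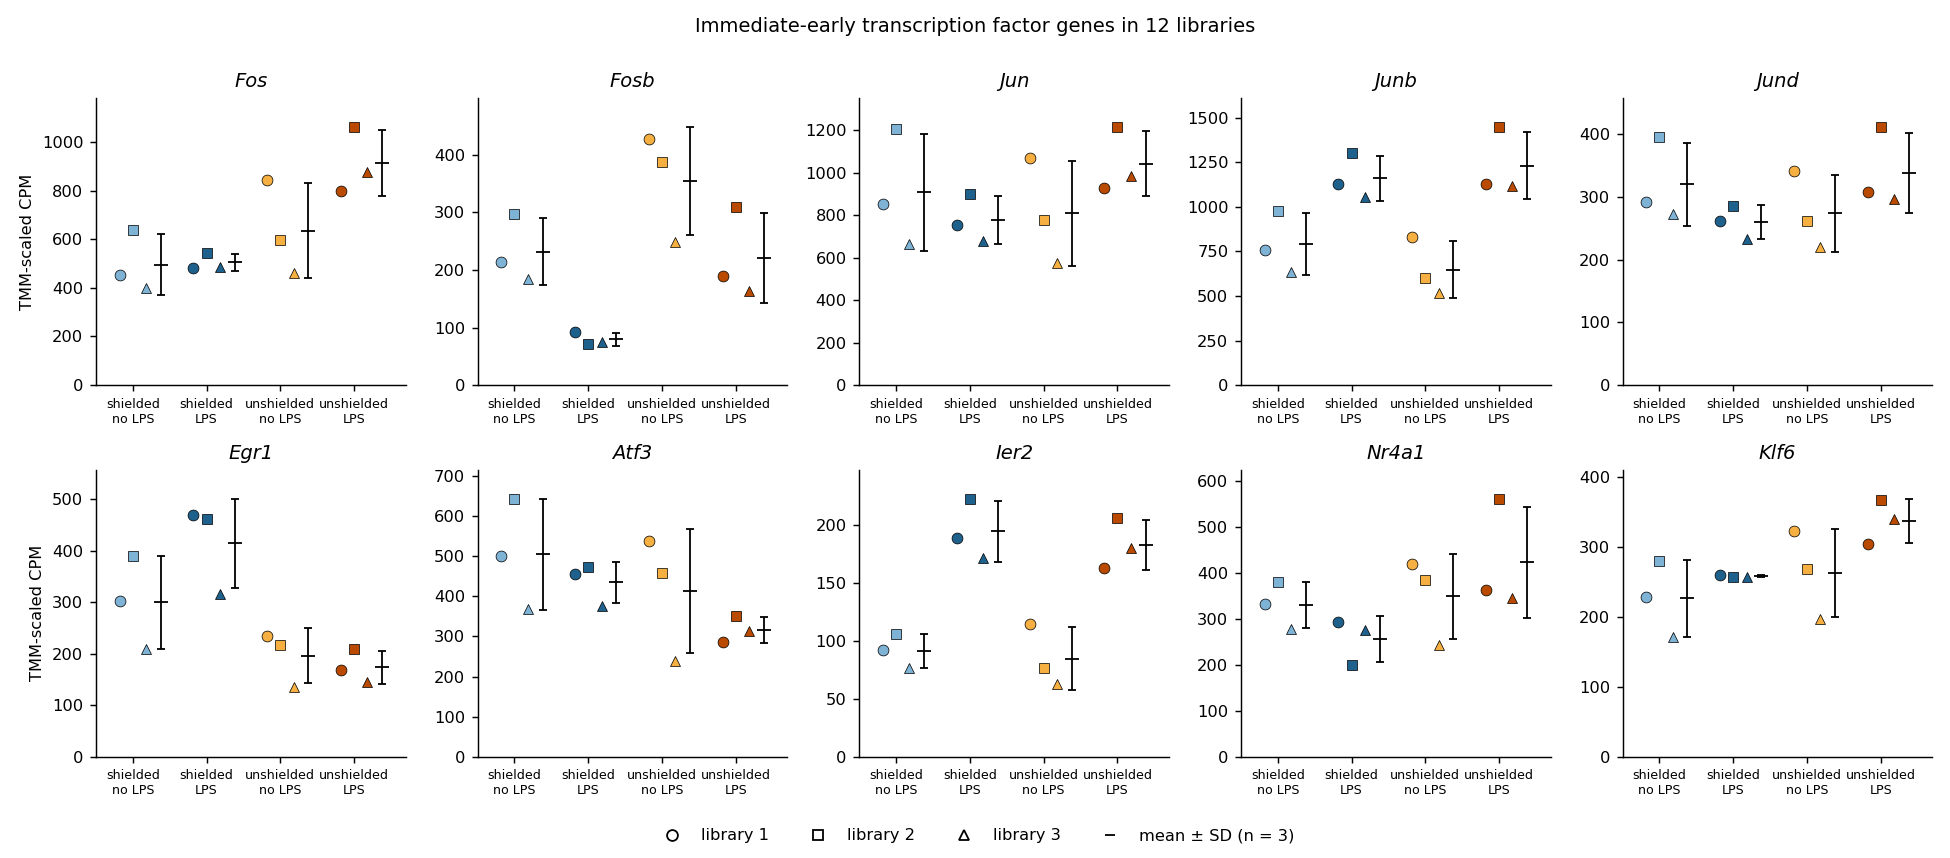
Scaled CPM (vertical axis, linear from 0) of the 10 genes in the 12 libraries, by group; symbols are the libraries, and the line with bars is the mean ± SD (n = 3). The Junb and Ier2 libraries with LPS lie above those without LPS under both shield conditions, and Fosb is lowest in shielded mice with LPS.

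The FOS family genes took different courses. Fos, whose product is the classic partner of JUN in AP-1, was measured at 453, 637 and 398 CPM in shielded mice without LPS and at 482, 545 and 487 CPM with LPS. The unshielded libraries stood at 845, 598 and 460.2 CPM without LPS and at 797, 1061 and 876 CPM with LPS. All 3 unshielded libraries with LPS lay above all 3 shielded ones with LPS, and the groups of the other 3 comparisons overlapped. Fos was 1.81-fold higher in unshielded than in shielded mice after LPS (log2 fold change 0.85 ± 0.22 SE, edgeR adjusted p = 0.00753, n = 3 against 3). The LPS effect on Fos was 0.03 ± 0.22 in shielded mice (edgeR adjusted p = 0.921) and 0.52 ± 0.22 in unshielded mice (edgeR adjusted p = 0.0697). The second passed the threshold with DESeq2 (adjusted p = 0.0485) and in edgeR without library 1 of the unshielded group without LPS (0.75, adjusted p = 0.0136).

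Fosb, a close relative of Fos, fell with LPS in shielded mice. Its 3 libraries stood at 214, 297 and 185 CPM without LPS and at 92.3, 71.7 and 74.4 CPM with LPS, with no overlap. The change was -1.54 ± 0.27 on the log2 scale, 2.91-fold lower (edgeR adjusted p = 0.000505), and was -1.43 with an edgeR adjusted p = 0.0101 without the 2 libraries whose treatment field conflicts. In unshielded mice Fosb was at 428, 388 and 249 CPM without LPS and at 190.0, 309 and 164 CPM with LPS, and the groups overlapped. That change of -0.68 ± 0.27 missed the threshold (edgeR adjusted p = 0.0590). It passed in DESeq2 (adjusted p = 0.0272) and in edgeR without library 2 of the unshielded group with LPS (-0.98, adjusted p = 0.00990) or without library 3 of the unshielded group without LPS (-0.91, adjusted p = 0.0207). After LPS, Fosb was 2.78-fold higher in unshielded than in shielded mice (log2 1.47 ± 0.27, edgeR adjusted p = 0.00125). This comparison and the LPS comparison in shielded mice share the shielded libraries with LPS.

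Among the JUN family genes, Junb rose with LPS under both shield conditions, and Jun and Jund passed in no comparison when all 12 libraries were fitted with TMM scaling and no block. Junb, which forms AP-1 dimers with FOS proteins, stood at 760.2, 976 and 636 CPM without LPS and at 1126, 1299.6 and 1053 CPM with LPS in shielded mice. Its unshielded libraries stood at 828, 599 and 518 CPM without LPS and at 1127, 1448 and 1117 CPM with LPS. Neither pair of groups overlapped. The rise was 1.90-fold in unshielded mice (log2 0.93 ± 0.19, edgeR adjusted p = 0.00209) and 1.47-fold in shielded mice (log2 0.55 ± 0.19, edgeR adjusted p = 0.0230).

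The Junb call in shielded mice was lost in edgeR without library 2 of the shielded group with LPS (adjusted p = 0.0742), and without library 1 (adjusted p = 0.0563) or library 3 (adjusted p = 0.0870) of the shielded group without LPS. It was also lost without the 2 libraries of conflicting field (log2 0.61, edgeR adjusted p = 0.0814) with no filter on low counts (log2 0.51, edgeR adjusted p = 0.0659) and when libraries were scaled by their totals (log2 0.21, edgeR adjusted p = 0.242). Scaling by totals moved the median log2 change of all tested genes from -0.14 to -0.49 in shielded mice and from -0.06 to -0.36 in unshielded mice. With it, 4042 genes were higher and 9131 lower after LPS in shielded mice, against 6119 and 6619, and 2656 were higher and 6520 lower in unshielded mice, against 4585 and 3543. Between shielded and unshielded mice with LPS, Junb differed by 0.09 ± 0.19 on the log2 scale (edgeR adjusted p = 0.726).

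Jun, the founding member of its family, ranged from 665 to 1206 CPM in shielded mice without LPS and from 678 to 898 CPM with LPS. The unshielded range was from 576 to 1068 CPM without LPS and from 928 to 1215 CPM with LPS. The log2 LPS effects were -0.23 ± 0.24 (edgeR adjusted p = 0.420) and 0.37 ± 0.24 (edgeR adjusted p = 0.237). Jund, often the steadiest JUN gene, had the narrowest fold range of the 10 with TMM scaling, from 219.6 to 411 CPM, 1.87-fold over all libraries. With libraries scaled by their totals, Klf6 (199 to 347 CPM) ranged less than Jund (212 to 425 CPM). The LPS effects on Jund were -0.30 ± 0.19 in shielded mice (edgeR adjusted p = 0.170) and 0.30 ± 0.19 in unshielded mice (edgeR adjusted p = 0.204). Jun and Jund libraries with LPS did not overlap between shielded and unshielded mice, but neither passed the test (edgeR adjusted p = 0.167 and 0.113). Both passed when only those 6 libraries were fitted (edgeR adjusted p = 0.0363 and 0.0492), and Jund also with libraries scaled by their totals (edgeR adjusted p = 0.0273). Jun overlaps the antisense gene Junos by 232 bases, Junb overlaps Prdx2 by 173 bases and Jund overlaps Gm11175 by 877 bases, all on the opposite strand, and the strand setting of the counting is not given in the sources used here. Reads from those stretches cannot be assigned with certainty. Junos itself held 0.392 to 1.21 CPM and Prdx2 43.8 to 62.4 CPM.

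Ier2, a nuclear immediate-early gene product, rose most evenly. It stood at 91.9, 106 and 76.5 CPM without LPS and at 189, 223 and 172 CPM with LPS in shielded mice. The unshielded mice gave 115, 76.3 and 62.6 CPM without LPS and at 163, 206 and 180.0 CPM with LPS. Libraries with LPS lay above all libraries without LPS in both. The rise was 2.13-fold in shielded mice (log2 1.09 ± 0.20, edgeR adjusted p = 0.000622) and 2.16-fold in unshielded mice (log2 1.11 ± 0.20, edgeR adjusted p = 0.000956). Without the 2 libraries of conflicting field, the rise in shielded mice was 1.08 on the log2 scale (edgeR adjusted p = 0.0176). The difference of the Ier2 LPS effects was 0.02 on the log2 scale (edgeR adjusted p = 0.961).

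Egr1, a zinc finger factor and a standard readout of ERK signalling, separated the shielded from the unshielded mice after LPS. In shielded mice it was at 302, 389 and 209 CPM without LPS and at 469, 461 and 316 CPM with LPS. The unshielded libraries were at 235, 217 and 136 CPM without LPS and at 168, 208 and 144 CPM with LPS. Every shielded library with LPS lay above every unshielded library with LPS. Egr1 was 2.39-fold lower in unshielded mice after LPS (log2 -1.26 ± 0.27, edgeR adjusted p = 0.00277), and without LPS the difference was -0.61 ± 0.26 (edgeR adjusted p = 0.193).

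The LPS effect on Egr1 was 0.47 ± 0.26 in shielded mice (edgeR adjusted p = 0.131), where the groups overlapped, and -0.18 ± 0.26 in unshielded mice (edgeR adjusted p = 0.599). With the replicate number as a block, the shielded value was 0.49 and passed (edgeR adjusted p = 0.00793). It also passed in edgeR without library 3 of the shielded group with LPS (0.66, adjusted p = 0.0483) and without library 2 of the shielded group without LPS (0.70, adjusted p = 0.0425). The test of the difference of the Egr1 LPS effects by shield gave -0.65 (edgeR adjusted p = 0.273), and -0.64 with the block (edgeR adjusted p = 0.0488).

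Atf3, a stress-induced factor of the ATF/CREB family, stood at 499.8, 643 and 369 CPM without LPS and at 456, 472 and 376 CPM with LPS in shielded mice. In unshielded mice it stood at 538, 459 and 239.7 CPM without LPS and at 286, 349.5 and 314 CPM with LPS. All 3 unshielded libraries with LPS lay below the shielded ones with LPS, with a log2 difference of -0.46 ± 0.27 that missed the threshold (edgeR adjusted p = 0.175). It passed in edgeR without library 3 of the unshielded group without LPS (-0.50, adjusted p = 0.0420), a library outside this comparison. Without the same library the LPS effect in unshielded mice was -0.69 (edgeR adjusted p = 0.0200), against -0.38 ± 0.27 (edgeR adjusted p = 0.264) with it.

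Nr4a1, an orphan nuclear receptor, was at 333, 380.5 and 279 CPM without LPS and at 293, 199.6 and 276 CPM with LPS in shielded mice. In unshielded mice it was at 420.3, 384 and 244 CPM without LPS and at 363, 563 and 345 CPM with LPS. The unshielded libraries with LPS lay above the shielded ones with LPS, 1.65-fold higher (log2 0.72 ± 0.24, edgeR adjusted p = 0.0296). This call was lost in edgeR without library 2 (adjusted p = 0.134) or library 3 (adjusted p = 0.0513) of the shielded group with LPS, library 2 of the unshielded group with LPS (adjusted p = 0.0950) or library 1 of the shielded group without LPS (adjusted p = 0.0509). It was also lost with no filter on low counts (edgeR adjusted p = 0.0930). Klf6, a Krüppel-like zinc finger factor, held nearly the same TMM-scaled level in the shielded libraries with LPS (260.4, 258 and 258 CPM) and ranged from 171 to 280.5 CPM without LPS. With libraries scaled by their totals, Klf6 stood at 212, 219 and 244 CPM in the shielded libraries with LPS. In unshielded mice it ranged from 197 to 323 CPM without LPS and from 305 to 368 CPM with LPS. No Klf6 comparison passed with all 12 libraries and TMM scaling. The nearest was the 0.39 ± 0.19 log2 difference between unshielded and shielded mice after LPS (edgeR adjusted p = 0.106), which passed with only those 6 libraries fitted (edgeR adjusted p = 0.0105) and with libraries scaled by their totals (edgeR adjusted p = 0.0362).

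**Figure D2:**
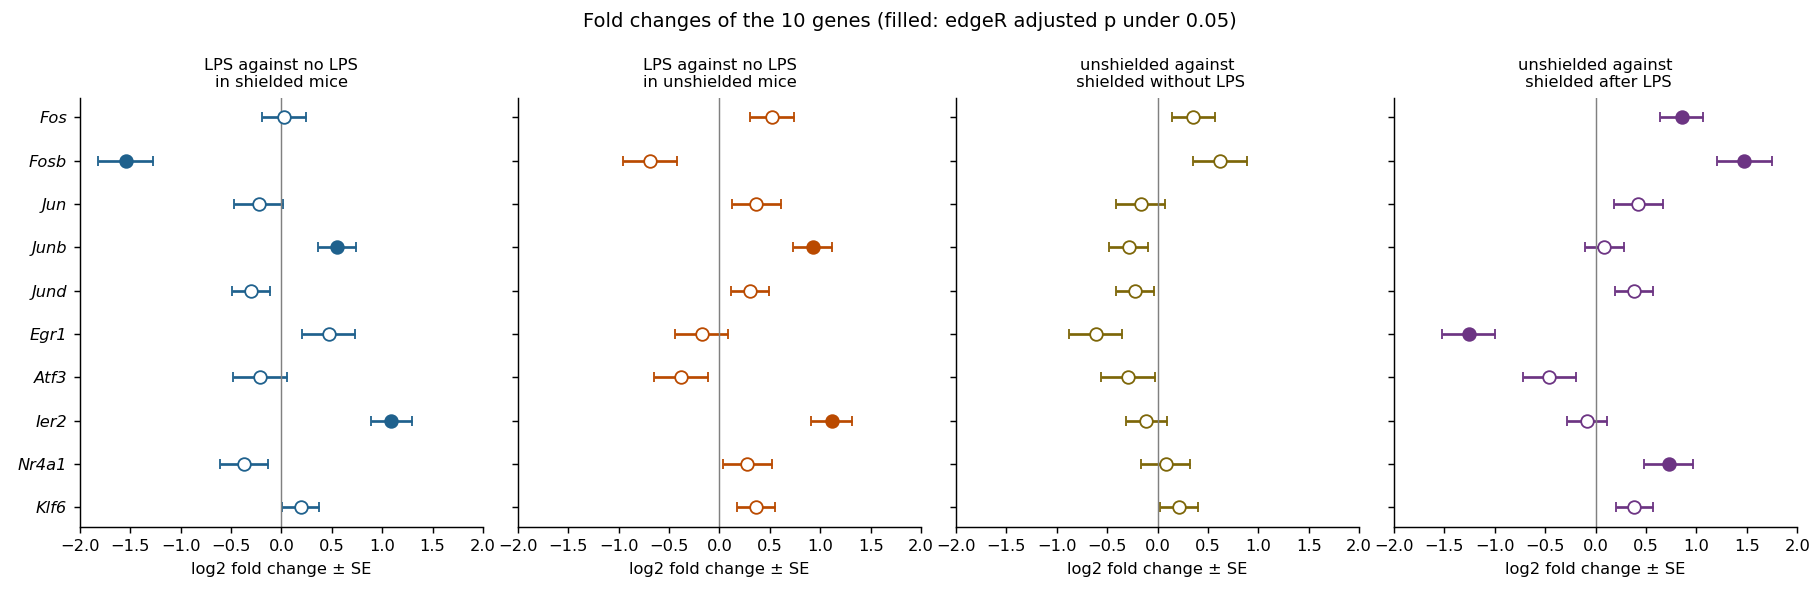
Log2 fold changes ± SE (horizontal axis) of the 10 genes in the 4 comparisons, each from 3 against 3 libraries; filled points passed edgeR's adjusted threshold of 0.05. Filled points number 3, 2, 0 and 4 from left to right, and Fosb has the lowest value after LPS in shielded mice and the highest in the last panel.

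After LPS, 8 of the 10 members did not overlap between unshielded and shielded mice (all but Junb and Ier2), where 49.5% of all tested genes did not overlap. Of the 8, Fos, Fosb, Jun, Jund, Nr4a1 and Klf6 were higher in unshielded mice, and Egr1 and Atf3 were lower. When only these 6 libraries were fitted, the same 8 genes passed edgeR's threshold, against 34.3% of the 17660 genes tested in that fit. The members' median log2 difference was 0.38, and that of all tested genes was 0.07. For LPS, the members' median was -0.09 in shielded mice, against -0.14 for all genes, and 0.33 in unshielded mice, against -0.06.

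The direct test of whether the LPS effect differed by shield called 0 of 10 members in edgeR (2 had an unadjusted p below 0.05, and DESeq2 also called 0), against 13.3% of all genes (4.06% higher and 9.25% lower). The largest values were 0.86 ± 0.38 for Fosb (edgeR adjusted p = 0.160) and 0.60 ± 0.26 for Jund (edgeR adjusted p = 0.153). A different LPS effect by shield was thus not shown for any member without the block, while the members' p-values do not show that the effects were equal.

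The order of the members was compared per kilobase of exon, since longer transcripts give more reads. Junb was the highest in all 4 groups, at 344 and 282 CPM per kilobase without LPS in shielded and unshielded mice, and at 504 and 535 with LPS. Jun was second in shielded mice (285 without and 243 with LPS) and Fos second in unshielded mice (269.7 and 388). Junb stood clear of the next gene, with no overlap between libraries, only in the groups with LPS. Fosb was the lowest in 3 groups, at 37.1 and 12.7 CPM per kilobase in shielded mice without and with LPS and at 35.4 in unshielded mice with LPS. In the unshielded group without LPS the lowest was Egr1, at 43.8. Without LPS only 1 of the 9 pairs of neighbours in the order did not overlap, Jund above Nr4a1 under both shield conditions. With LPS, 4 of 9 neighbours in shielded mice and 5 of 9 in unshielded mice did not overlap.

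Within groups, the 10 genes moved together. Library 2 was the highest for 10 of 10 members in shielded mice without LPS, and library 3 the lowest for 10 of 10. In unshielded mice without LPS, library 1 was the highest and library 3 the lowest for 10 of 10, and in unshielded mice with LPS, library 2 was the highest for 10 of 10. Over all tested genes, the same libraries were the highest for 35.1%, 36.4% and 43.4%, and the lowest for 38.1% and 35.2%. Shielded mice with LPS showed no single order: library 2 was the highest for 6 members and library 1 for 4, and library 3 was the lowest for 7.

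The mean log2 deviation of the 10 members from their group means was 0.35 and -0.32 in libraries 2 and 3 of the shielded group without LPS. It was 0.38 and -0.44 in libraries 1 and 3 of the unshielded group without LPS and 0.27 in library 2 of the unshielded group with LPS. In shielded mice with LPS it stayed between -0.12 and 0.07.

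**Figure D3:**
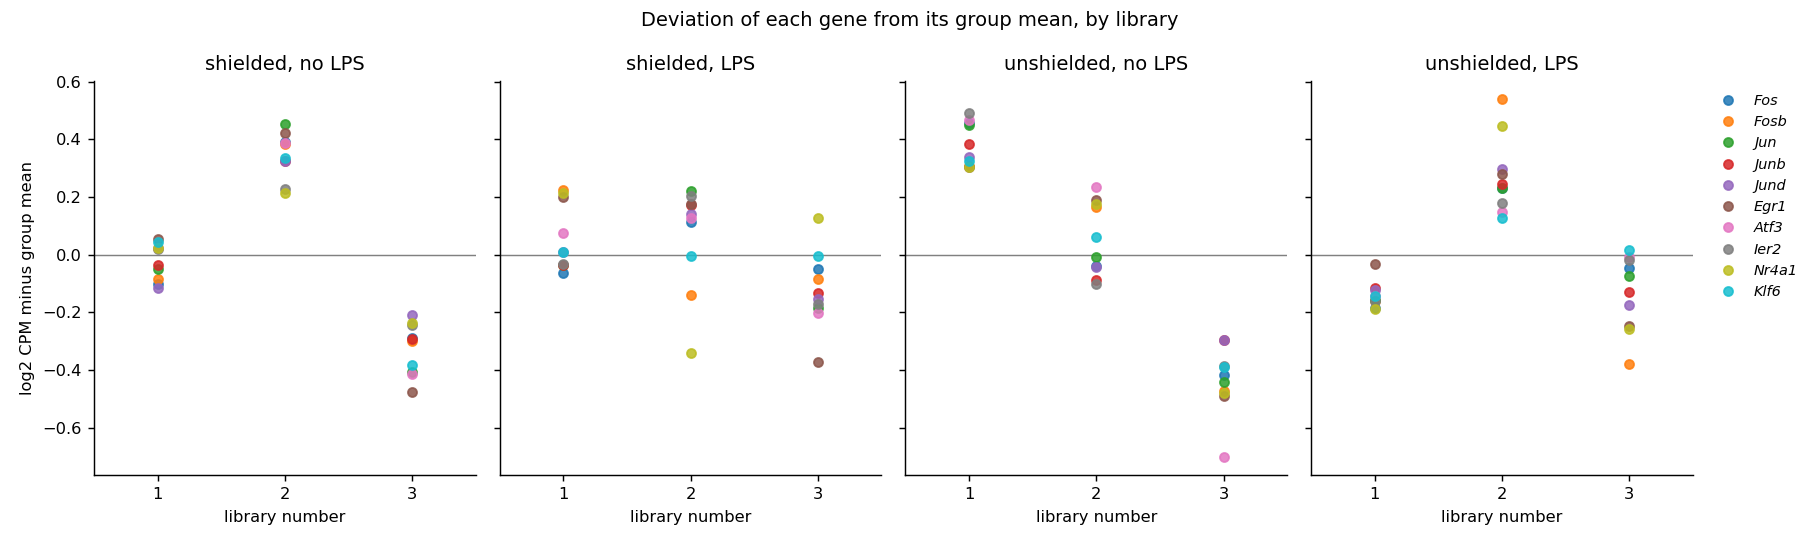
Deviation of each gene's log2 CPM from its mean in the group (vertical axis) in libraries 1 to 3 of each group; colours are the 10 genes. The points of a library move together in 3 groups, up to a mean of 0.38 above the group mean, and the library means lie closer to 0 in shielded mice with LPS.

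The summed CPM of a list of genes reported to rise while microglia are isolated showed a like order of libraries. The 11 measured genes of that list (such as Rgs1, Nfkbiz, Btg2 and Zfp36) summed to 2160, 2916 and 1776 CPM in shielded libraries 1 to 3 without LPS and to 2603, 2087 and 1769 CPM in the unshielded ones without LPS. With LPS they summed to 5509, 5568 and 4622 CPM in shielded mice and to 4534, 6534 and 4837 CPM in unshielded mice. The library that was highest or lowest for 10 of 10 members was also the highest or lowest for this sum in each of those groups. Between unshielded and shielded mice without LPS, 1 of the 11 was higher and 2 were lower, where 10.8% of all genes passed. After LPS, 2 were higher and 4 lower, where 44.6% of all genes passed. Dusp1, Zfp36 and Btg2 are on this list and also among the other immediate-early genes described below. The sum of 12 heat shock genes was 4427, 4353 and 3551 CPM in shielded mice without LPS and 4998, 4292 and 3484 CPM in unshielded mice without LPS. With LPS it was 11529, 8922 and 8069 CPM in shielded and 5558, 7151 and 5903 CPM in unshielded mice. The heat shock sum was thus lower in unshielded mice after LPS, with no overlap. In shielded mice without LPS, library 1 was the highest for this sum and library 2 for 10 of 10 members. The part of cell handling in the members' levels was not tested.

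Markers of other brain cells moved too. The 9 neuronal markers summed to 277, 419 and 1239 CPM in shielded mice with LPS and to 947 to 1414 CPM in unshielded mice with LPS, against 1405 to 2234 CPM without LPS in both. None of the 9 was at 0 in a whole group. Of them, 8 were lower with LPS in shielded mice (3 without the 2 libraries of conflicting field) and 0 passed in unshielded mice. With all 12 libraries, 67.5% of all genes passed in shielded mice (35.1% lower) and 43.1% in unshielded mice (18.8% lower). The 8 oligodendrocyte markers summed to 427 to 1335 CPM in shielded mice with LPS, against 1805 to 2844 CPM without, and to 1066 to 1915 CPM in unshielded mice with LPS, against 1783 to 2300 CPM without. The 9 endothelial markers summed to 121 to 191 CPM with LPS and to 194 to 329 CPM without, and the 9 astrocyte markers overlapped between LPS groups. Mitochondrial genes held 1.53% to 1.96% of counts with LPS and 2.06% to 2.23% without. Neurons also express Fos, Fosb, Egr1 and Nr4a1. The microglial markers were lower in unshielded mice, at 14819 to 21113 CPM against 21820 to 34167 CPM. The 10 monocyte markers summed to 129 to 300.1 CPM without LPS and to 570.1 to 823 CPM with it. Of these 10, 8 were higher with LPS in shielded mice and 9 in unshielded mice, where 67.5% and 43.1% of all genes passed. Ccr2, another of the 10, was lower in both (log2 -1.57 and -1.05, edgeR adjusted p = 4.58e-05 and 0.00157). Of 11 tested neutrophil markers, 2 were higher and 1 lower with LPS in shielded mice, and 6 were higher in unshielded mice. In bulk RNA, fewer cells of a type and less RNA per cell cannot be told apart. The part of these cells and of the mitochondrial share in the members' differences was not tested.

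The genes whose deviations from group means followed the members' mean most closely over the 12 libraries, of 9449 genes ranked, were Hmox1 (r = 0.979), Btg2 (0.974), Yipf1 (0.964), Tagap (0.962) and Klf2 (0.953). These values are a description, with no test, and the libraries' depth and scaling are shared by all genes. Hmox1 encodes heme oxygenase, and Btg2 and Klf2 are themselves immediate-early genes.

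Ratios between 2 members in the same library do not depend on the scaling of that library and remove most of the shared shift. They were chosen after the values had been seen and are given without a test. Over all 45 pairs of members, the ratio did not overlap between groups in 33 pairs for LPS in shielded mice, 35 for LPS in unshielded mice, 28 between shields without LPS and 37 after LPS, so a ratio without overlap was common. Junb reads per Jun read were 0.893, 0.809 and 0.957 in shielded mice without LPS and 1.49, 1.45 and 1.55 with LPS. In unshielded mice they were 0.775, 0.769 and 0.899 without LPS and 1.21, 1.19 and 1.14 with LPS. The ratio was higher with LPS in both, with no overlap, and higher in shielded than in unshielded mice after LPS. Jund reads per Jun read stayed between 0.302 and 0.411, and all groups overlapped.

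Fosb reads per Fos read were 0.473, 0.466 and 0.464 in shielded mice without LPS and 0.191, 0.132 and 0.153 with LPS. In unshielded mice they were 0.506, 0.649 and 0.542 without LPS and 0.239, 0.291 and 0.187 with LPS. So the ratio of Fosb to Fos was lower with LPS under both shield conditions, without overlap, although Fosb alone overlapped in unshielded mice. Egr1 reads per Fos read were 0.667, 0.612 and 0.526 in shielded mice without LPS and 0.972, 0.846 and 0.648 with LPS. They were 0.279, 0.363 and 0.295 in unshielded mice without LPS and 0.211, 0.196 and 0.165 with LPS. The Egr1 ratio was lower in every unshielded library than in every shielded one, also without LPS, where neither Egr1 nor Fos had passed the test alone. Ier2 reads per Fos read averaged 0.187 and 0.384 in shielded mice without and with LPS, and 0.133 and 0.202 in unshielded mice, with no overlap in any of the 4 comparisons.

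**Figure D4:**
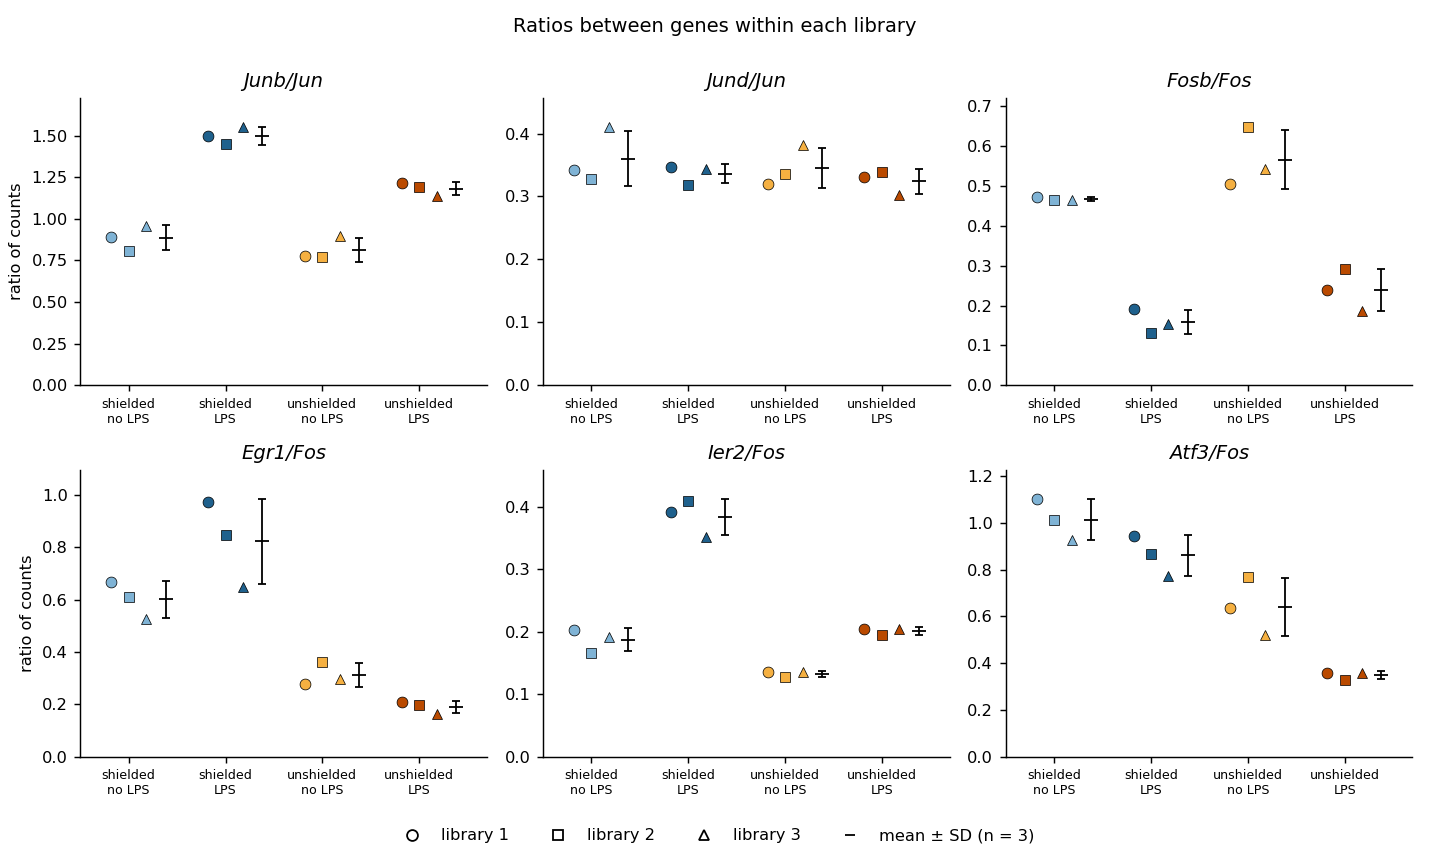
Ratio of the read counts of 2 genes in the same library (vertical axis, linear from 0), by group; symbols are the libraries, and the line with bars is the mean ± SD (n = 3). Junb per Jun is higher and Fosb per Fos lower in all libraries with LPS, Jund per Jun is flat, and Egr1 per Fos is lower in all unshielded libraries.

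Further genes of the AP-1 network were read from the same fit. Of 18 further FOS, BATF, MAF and ATF family genes, 14 were higher and 2 (Maf and Batf3) lower with LPS in shielded mice (16 of 18, where 67.5% of all genes passed; median log2 1.17, against -0.14 for all tested genes). In unshielded mice 10 were higher and the same 2 lower (12 of 18, where 43.1% of all passed; median 0.81, against -0.06). Scaling by library totals gave 12 and 2, and 10 and 3. Jdp2, a repressor that pairs with JUN proteins, rose by 3.08 ± 0.17 on the log2 scale in shielded mice (edgeR adjusted p = 5.06e-08) and by 2.43 ± 0.17 in unshielded mice (edgeR adjusted p = 6.31e-07). Batf, a further JUN partner, rose by 2.10 ± 0.15 in unshielded mice (edgeR adjusted p = 7.01e-07). Maf, a large MAF factor, changed by -1.37 ± 0.14 in shielded mice (edgeR adjusted p = 2.94e-06) and by -0.79 ± 0.14 in unshielded mice (edgeR adjusted p = 0.000506). Between unshielded and shielded mice after LPS, 10 of the 18 passed, where 44.6% of all genes did. Of these, 2 were higher, Maf (0.81 ± 0.14, edgeR adjusted p = 0.000454) and the FOS family gene Fosl2 (1.10 ± 0.19, edgeR adjusted p = 0.000521), and 8 were lower, such as Atf4 (-0.85 ± 0.12, edgeR adjusted p = 1.00e-04).

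Of 27 other immediate-early genes, 15 were higher and 5 lower (Egr2, Egr3, Nr4a2, Arc and Npas4) with LPS in shielded mice (20 of 27, near the 67.5% of all genes; median log2 0.77). In unshielded mice 13 were higher and 3 lower (Egr2, Egr3 and Arc), with a median of 0.38 (16 of 27, against 43.1% of all genes). Library totals as the scale gave 14 and 7, and 12 and 4. All 5 of the lower genes are known as activity-regulated genes of neurons, and the neuronal marker sum was also lower in shielded mice with LPS. In unshielded mice, where Egr2, Egr3 and Arc were lower, that sum was 947 to 1414 CPM with LPS and 1461 to 2189 CPM without. There 0 of the 9 neuronal markers passed. The part of neuronal RNA was not tested. Homer1, also activity-regulated in neurons, rose by 1.35 ± 0.11 in shielded mice (edgeR adjusted p = 4.11e-07), and Nr4a3, a relative of Nr4a1, changed by 0.26 ± 0.42 (edgeR adjusted p = 0.588). Gadd45b, a stress sensor, rose by 2.52 ± 0.17 and 2.22 ± 0.17 on the log2 scale (edgeR adjusted p = 1.28e-07 and 9.69e-07). Dusp1, a phosphatase that ends MAP kinase signalling, rose by 2.18 ± 0.21 in unshielded mice (edgeR adjusted p = 7.99e-06). Egr3, a relative of Egr1, changed by -2.47 ± 0.32 in shielded and -2.43 ± 0.32 in unshielded mice (edgeR adjusted p = 3.30e-05 and 8.40e-05), at mean levels of 19.9 and 10.6 CPM without LPS. Egr2, a further EGR factor, changed by -1.01 ± 0.27 in unshielded mice (edgeR adjusted p = 0.0118), a call lost without library 3 of the unshielded group with LPS (edgeR adjusted p = 0.0501) and with no filter on low counts (edgeR adjusted p = 0.0687). Nr4a2, a relative of Nr4a1, changed by -1.59 ± 0.29 in shielded mice (edgeR adjusted p = 0.000458) and, like Nr4a1, was higher in unshielded than in shielded mice after LPS (1.53 ± 0.29, edgeR adjusted p = 0.00112).

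Among 26 measured factors and kinases upstream of the immediate-early genes, 15 were higher and 5 lower with LPS in shielded mice (20 of 26, against 67.5% of all genes), and 9 higher and 8 lower in unshielded mice (17 of 26, against 43.1%). Under scaling by totals these were 10 and 8, and 5 and 9, and the median in unshielded mice turned from 0.17 to -0.13. Map3k8, a kinase that links Toll-like receptors to ERK, rose by 2.79 ± 0.18 and 2.92 ± 0.18 on the log2 scale (edgeR adjusted p = 1.04e-07 and 2.74e-07). Mef2c, a factor of the myeloid lineage that binds immediate-early promoters, changed by -1.16 ± 0.10 in unshielded mice (edgeR adjusted p = 1.90e-06). After LPS, 13 of the 26 were lower and 3 (Map2k6, Rps6ka5 and Mapk14) higher in unshielded than in shielded mice (16 of 26, against 44.6% of all genes). Of 8 partners and feedback regulators, 4 (Nab1, Nab2, Dusp5 and Dusp6) were higher and 1 (Tob1) lower with LPS in shielded mice, and 2 (Nab1 and Dusp5) were higher in unshielded mice, so 5 of 8 and 2 of 8 passed against 67.5% and 43.1% of all genes. By library totals these were 3 and 3, and 2 and 3. Nab1, a corepressor that binds EGR proteins, rose by 1.70 ± 0.13 in shielded and 0.98 ± 0.13 in unshielded mice (edgeR adjusted p = 2.92e-07 and 5.53e-05) and was lower in unshielded mice after LPS (-0.87 ± 0.13, edgeR adjusted p = 0.000150), as Egr1 was.

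Of 15 measured genes that textbooks give as targets of AP-1 or EGR factors, 10 were higher and 1 (Ccnd1) lower with LPS in shielded mice, and 11 higher and 2 (Plau and Ccnd1) lower in unshielded mice. These are 11 of 15, near the 67.5% of all genes, and 13 of 15, against 43.1%. With libraries scaled by their totals these were 9 and 3, and 7 and 2. Plaur, the urokinase receptor, rose by 2.59 ± 0.11 and 2.56 ± 0.11 on the log2 scale (edgeR adjusted p = 1.37e-08 and 3.07e-08). Ptgs2, the inducible cyclooxygenase, rose by 3.08 ± 0.27 in shielded mice (edgeR adjusted p = 1.90e-06), and Mmp13, a collagenase, by 3.54 ± 0.39 in unshielded mice (edgeR adjusted p = 2.28e-05). Between unshielded and shielded mice after LPS, 2 of these 15 were higher (Vim and Gclm) and 2 lower (Tnf and Ccl2), against 44.6% of all genes passing.

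Of the 12 heat shock genes, 11 rose with LPS in shielded mice, 6 rose in unshielded mice, and 0 were lower, where 67.5% and 43.1% of all genes passed. With libraries scaled by their totals, 7 were higher and 1 lower in shielded mice, 2 were higher in unshielded mice, and without the 2 libraries of conflicting field 6 and 4 were higher. After LPS, 6 were lower and 1 higher in unshielded than in shielded mice, where 44.6% of all genes passed (19.1% higher and 25.6% lower). Hspd1, a mitochondrial chaperone, was lower (-1.19 ± 0.15, edgeR adjusted p = 5.31e-05) and Dnajb1, a cofactor of HSP70, was the higher one (1.19 ± 0.23, edgeR adjusted p = 0.00159).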

How the data were processed

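Bulk RNA-seq was done on 12 libraries of CD11b-enriched brain microglia, 3 in each of 4 groups taken from the titles. Linear amplification of the RNA came before the libraries were made, per the labels' protocols. The submitters' processing notes name FastQC, STAR, HTSeq and build mm9; versions, annotation and strand setting: not given in the sources used here. Authors deposited raw read counts by gene, with no row under 2 counts in total. Symbols came from the reference table of names (254 identifiers had none, and 12 shared one), and 36264 identifiers matched GENCODE M21, used for exon lengths and overlaps only.

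Counts were fitted in edgeR 4.0.16 (R 4.3.3) with TMM scaling, filterByExpr (minimum count 10) and robust quasi-likelihood tests, in 1 model of all 12 libraries; p-values are two-sided and Benjamini-Hochberg adjusted over 18875 genes. CPM values are TMM-scaled. The test was tried on simulated counts. DESeq2 1.42.0, other scalings, no filter, the compared groups alone, a replicate block, left-out libraries and the treatment field's grouping were alternatives. Nothing says that libraries came from separate mice, so p-values cover only library-to-library spread, which may be technical. A permutation test of 3 against 3 cannot go below p = 0.1 and was not used.

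The titles number the libraries 1 to 3 in each group. Same-numbered shielded libraries with and without LPS gave r across genes of 0.112, 0.194 and 0.547, and different-numbered ones gave -0.483 to 0.399. These values do not settle whether the number marks a pair. In unshielded mice the same-numbered values were -0.115, -0.0943 and 0.0199. The main fit held no block, and the replicate block was an alternative only. The named genes were all 10 members and, from each other list, the 2 genes per direction and comparison with the smallest p; 1 such gene is not reported here. Members and lists were chosen with earlier results of these data known. Promoter sequences come from RefSeq on GRCm38.p6 by symbol; 8 of 10 members matched.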

Additional observations from a re-analysis of the deposited data

Results flagged for a closer look

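The test of whether the LPS effect differed between unshielded and shielded mice (interaction test of edgeR) called 0 of the 10 members. Over the 6 other gene lists it called 16 of 105 genes, near the 13.3% of all genes, with 3 positive and 13 negative. Values are log2, unshielded minus shielded, so a negative value is a smaller rise or a larger fall in unshielded mice. A positive value is a larger rise or a smaller fall there. Among AP-1 network genes, Nfe2l2, which encodes the oxidative stress factor NRF2, had -0.84 (adjusted p = 0.00885) and Atf4, a factor of the integrated stress response, had -0.64 (adjusted p = 0.0237). Among immediate-early genes, Homer1, which encodes a synaptic scaffold, had -1.05 (adjusted p = 0.00200) and Myc, a growth factor-induced transcription factor, had -1.19 (adjusted p = 0.0339). The EGR corepressor Nab1 had -0.72 (adjusted p = 0.0197). The chaperones Hspd1 and Hsp90ab1 had -1.13 (adjusted p = 0.00528) and -1.01 (adjusted p = 0.00709).

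Among upstream factors, the kinases Rps6ka5 (MSK1) and Map2k6, which activates p38, had positive values of 0.77 (adjusted p = 0.0100) and 1.56 (adjusted p = 0.0414). With LPS in shielded mice these 2 genes fell, by log2 -1.51 and -3.51. Map2k6 was at a low level with LPS, at a mean of 0.740 CPM (SD 0.500) in shielded and 1.88 CPM (SD 0.471) in unshielded mice. The CREB relative Atf1 had -0.56 (adjusted p = 0.0234). Among targets, Gclm, of glutathione synthesis, had 0.41 (adjusted p = 0.0341) and the cytokine gene Tnf had -1.33 (adjusted p = 0.0351). Batf3, Atf6 and Rps6ka3 also passed and are named here after their values were seen.

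Without the 2 libraries of conflicting treatment field, the edgeR value of Homer1 was still past the threshold (-1.03, adjusted p = 0.0489). The calls of Nfe2l2 (-0.71, adjusted p = 0.131), Atf4 (-0.66, adjusted p = 0.169), Myc (-1.29, adjusted p = 0.111), Nab1 (-0.59, adjusted p = 0.231), Hspd1 (-0.99, adjusted p = 0.0959) and Hsp90ab1 (-0.95, adjusted p = 0.111) were lost. So were those of Rps6ka5 (0.79, adjusted p = 0.0845), Map2k6 (1.495, adjusted p = 0.220), Atf1 (-0.55, adjusted p = 0.182), Gclm (0.47, adjusted p = 0.162) and Tnf (-1.39, adjusted p = 0.126).

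Leaving out 1 library at a time ended the Atf4 call in 6 of 12 cases (adjusted p = 0.0503 to 0.0568) and the Myc call in 7 of 12 (adjusted p = 0.0626 to 0.0716). It ended those of Map2k6 and Gclm in 10 of 12 each, Tnf in 8 and Atf1 in 3, and none of those of Nfe2l2, Homer1, Nab1, Hspd1, Hsp90ab1 and Rps6ka5. With no filter on low counts, Atf4 (adjusted p = 0.0542), Myc (adjusted p = 0.177), Atf1 (adjusted p = 0.0911), Gclm (adjusted p = 0.0988) and Tnf (adjusted p = 0.185) were also lost.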

How the results depend on the processing

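Of the members' log2 changes under all alternatives, 915 kept their direction and side of edgeR's threshold, 27 passed newly, 18 were lost and 30 turned sign, the last all among values that had not passed. For the listed genes 1172 kept both, 152 calls were lost and 4 turned sign. The causes were not tested. When the 2 conflicting libraries took the group in their field, 0 members and 0 genes passed for LPS in shielded mice, 0 members and 117 genes for LPS in unshielded mice, 0 genes between shields without LPS, 2 members and 1464 genes between shields after LPS, and 0 genes for the difference of LPS effects. Without these 2 libraries, 8369, 292 and 148 genes passed for LPS in shielded mice, between shields without LPS and for the difference. With library totals, 5 and 4 members passed for LPS in shielded and unshielded mice. DESeq2 called 4 members and 8130 genes for LPS in unshielded mice, 8 members (6 higher, 2 lower) and 6056 genes passed after LPS with only the compared groups fitted, and 1571 genes passed for the difference with no filter.

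With the replicate block, 4 members passed for LPS in shielded mice (Junb, Ier2 and Egr1 higher and Fosb lower), 4 for LPS in unshielded mice (Fos, Junb and Ier2 higher and Fosb lower) and 1 for the difference of LPS effects (Egr1, -0.64). A block over all 4 groups, chosen after seeing the data, gave 1 member between shields without LPS (Egr1, -0.61, adjusted p = 0.00657), where the same-number r values were 0.140, -0.0165 and 0.123, and after LPS added Jund (0.37, adjusted p = 0.0483). The compared groups alone cannot be fitted for the difference.

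Leaving out 1 library at a time, all genes passing ranged from 10725 to 13697 (LPS, shielded), 6219 to 9442 (LPS, unshielded), 1094 to 2353 (shields without LPS), 6362 to 11101 (shields after LPS) and 1615 to 6391 (difference). Members passing ranged from 2 to 4, 2 to 4, 0 to 0, 3 to 5 and 0 to 0. Between shields without LPS, library 2 of the shielded group (1139), and libraries 1 (1171) and 3 (1094) of the unshielded group, moved the count of genes by over 1.5 times. For the difference, library 3 of the shielded group with LPS (6391), library 3 of the shielded group without LPS (1615) and library 2 of the unshielded group without LPS (1635) did so.

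The log2 values that turned sign were as follows. By field, Jund was 0.0077 (LPS, shielded), Ier2 0.21 (shields after LPS) Fosb -0.15 (difference), Map2k6 -1.10 (shields after LPS) and -0.94 (difference) and Rps6ka5 -0.066 and -0.042. With library totals, Fos was -0.31 and Klf6 -0.15 (LPS, shielded) and Nr4a1 -0.030 (LPS, unshielded). With no filter, Fos was -0.015 (LPS, shielded). Leaving out single libraries, the members that turned sign ranged for LPS in shielded mice from -0.094 to 0.25 (Fos), -0.39 to 0.038 (Jun) and -0.38 to 0.0046 (Atf3). They ranged between shields without LPS from -0.41 to 0.089 (Jun), -0.39 to 0.064 (Ier2) and -0.068 to 0.28 (Nr4a1), and after LPS from -0.037 to 0.15 (Junb). For the difference they ranged from -0.49 to 0.019 (Atf3), -0.19 to 0.26 (Ier2) and -0.042 to 0.30 (Klf6).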
